A study of Rattus norvegicus with 60 samples.

Results

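Cxcl10 and 9 further genes of the interferon response (Isg15, Oas1a, Usp18, Irf7, Mx1, Mx2, Ifit2, Ifit3 and Rsad2) were followed through 60 rat liver arrays. They are 10 of the 14217 genes that the arrays measure under a single gene symbol, and they were taken by symbol. All 10 symbols were found, on 12 probe sets, and where a symbol had several the probe set with the highest mean over the 60 arrays stood for it. The probe sets were 1387969_at for Cxcl10, 1382314_at for Isg15, 1371152_a_at for Oas1a, 1389034_at for Usp18, 1383564_at for Irf7, 1371015_at for Mx1, 1387283_at for Mx2, 1384180_at for Ifit2, 1376908_at for Ifit3 and 1370913_at for Rsad2. Mx1 and Mx2, Ifit2 and Ifit3, and the Oas1 genes each belong to families of similar sequence, so a probe set of one could bind transcripts of another.

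The study set hepatocytes, the parenchymal cells of the liver (written HC), beside a mesenchymal fraction (MC) from Han-Wistar rats of 8 weeks. Cyproterone acetate (CPA), a steroidal antiandrogen and progestin, went to female rats at 100 mg/kg by gavage on 1 day or on each of 6 days. Its controls were female rats given corn oil (CO) at 10 ml/kg and read at 24 h or 6 d. Phenobarbital (PB), a barbiturate that induces drug metabolism, was given at 50 mg/kg by a single gavage, or in the drinking water for 14 d, and its controls had water (H2O) and were read at 24 h or 14 d. Rats of the PB and water groups were labelled male, except replicate 3 of each at 24 h, which was labelled female although the protocol names only male rats for PB. Each fraction held 30 arrays in 9 groups: 5 of CO at 24 h, 4 of a further CO group at 24 h coded CO_Co whose difference from the other is not stated, and 3 of every other group. The labels name water as the control of PB, whereas the protocol speaks of oil-treated controls, and the labels were followed. A contrast of CPA with PB would therefore also be one of sex and of vehicle, and none was made. Whether replicate arrays are of separate animals is not stated, so the p-values measure the spread between arrays, which may be technical. Values are log2 levels, on which a difference of 1 is a doubling, and the median of an array lay between 3.25 and 3.44.

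Type I interferons signal through JAK kinases to a complex that holds IRF9 and binds interferon-stimulated response elements (ISRE) and switches on antiviral genes. Interferon-gamma acts on another element, called GAS. Cxcl10 encodes a chemokine that draws T and NK cells through the receptor CXCR3, and it answers both interferons as well as NF-kB. Of the other members, Irf7 amplifies interferon production, Isg15 is a ubiquitin-like modifier, and Usp18 removes it from proteins and dampens the interferon receptor. Oas1a makes the second messenger that activates RNase L, Mx1 and Mx2 are dynamin-like GTPases, Ifit2 and Ifit3 belong to the tetratricopeptide proteins that act on viral RNA, and Rsad2 encodes viperin.

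Promoter sequences show which of these elements lie near the start sites. RefSeq windows of the rat assembly GRCr8, from 250 bases before to 50 after the start, were matched for 6 of the 10 members (Cxcl10, Oas1a, Irf7, Mx1, Ifit3 and Rsad2). The ISRE core, a pair of GAAA with any 2 bases between them and searched on both strands, lay in 5 of these 6, against 3.77% of 27457 rat promoters of the same length, and Mx1 had none in its window. The NF-kB consensus lay in 1 of the 6, Cxcl10, against 7.6% of all promoters, and the GAS core, TTC and GAA with any 3 bases between them, in 1 of the 6, Oas1a, against 8.68%. The window of Cxcl10 is shown because it was the only one of these with both kinds of match. Capitals mark its ISRE core, at -243 to -234 from the start, and its NF-kB matches, at -187 to -178 and at -128 to -118, the latter being overlapping matches on the 2 strands (chr14:15988816-15989115, plus strand).
Cxcl10: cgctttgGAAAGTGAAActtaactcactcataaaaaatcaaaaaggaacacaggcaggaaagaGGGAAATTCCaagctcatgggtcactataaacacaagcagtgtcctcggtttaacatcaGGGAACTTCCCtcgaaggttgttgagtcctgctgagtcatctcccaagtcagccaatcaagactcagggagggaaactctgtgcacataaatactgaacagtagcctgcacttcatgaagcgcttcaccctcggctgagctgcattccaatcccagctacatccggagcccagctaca
The other windows are shown from 20 bases before to 20 after the ISRE core, in capitals, with the distance of that core from the start used for its window. It lay at -41 to -26 in Oas1a, where a pair of cores overlap (chr12:41330405-41330460, plus strand), at -69 to -60 in Irf7 (chr1:205800063-205800112, minus strand), at -44 to -35 in Ifit3 (chr1:241527262-241527311, plus strand) and at -147 to -138 in Rsad2 (chr6:48788238-48788287, minus strand).
Oas1a: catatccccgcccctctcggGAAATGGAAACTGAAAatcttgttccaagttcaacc
Irf7: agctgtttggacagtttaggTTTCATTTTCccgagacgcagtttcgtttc
Ifit3: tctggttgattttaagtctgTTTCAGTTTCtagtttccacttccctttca
Rsad2: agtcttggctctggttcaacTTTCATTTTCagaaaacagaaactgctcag
A match is a stretch of letters and not a shown binding site, and each core was read 5′ to 3′ along the strand of its gene. The distances depend on the start used. The cores of Irf7 and Oas1a lie inside the annotated genes (chr1:205796956-205800543 and chr12:41330423-41341130). That of Rsad2 lies just outside its gene (chr6:48774985-48788245). Distances are therefore not comparable between these genes.

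Without treatment, all 10 members were lower in HC than in MC. The test was limma over all 14217 genes with Benjamini-Hochberg adjustment, called at an adjusted p under 0.05, and it called 34.8% of all genes lower in HC. Over the 18 vehicle arrays of each fraction, Cxcl10 stood at 2.87 ± 0.47 (SD) in HC, from 2.04 to 3.82 with a median of 2.98, and at 8.24 ± 1.72 in MC, from 4.28 to 10.20 with a median of 8.71. Its HC level was lower by a fitted log2 difference of -5.25 (SE 0.33, adjusted p = 9.2e-20), and no HC array reached an MC array. The arrays of the fractions were also apart for Irf7 (5.39 ± 0.36 in HC, 8.68 ± 0.88 in MC), Mx1 (2.40 ± 0.27, 7.04 ± 1.03), Ifit2 (5.84 ± 1.0, 10.25 ± 0.51), Ifit3 (2.20 ± 0.29, 7.72 ± 0.96) and Rsad2 (3.93 ± 0.39, 8.07 ± 0.63).

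For the 4 remaining genes the fractions overlapped. The HC and MC means were 6.28 ± 0.54 and 8.02 ± 0.86 for Isg15, and 5.22 ± 0.77 and 6.79 ± 0.65 for Oas1a. They were 4.34 ± 0.92 and 6.40 ± 0.79 for Mx2, and 5.70 ± 1.0 and 6.73 ± 0.82 for Usp18. Usp18 had the smallest fitted difference of the 10, -0.97 (SE 0.26, adjusted p = 0.000594). With labelled sex as a term, the calls of Usp18 (adjusted p = 0.258) and Isg15 (adjusted p = 0.0787) were lost and 8 members remained called. Only the PB and water groups at 24 h mix labelled sexes, so that term rests on their replicate 3, whose label departs from the protocol. In such bulk samples, fewer cells of a type and less RNA per cell cannot be told apart.

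**Figure D1:**
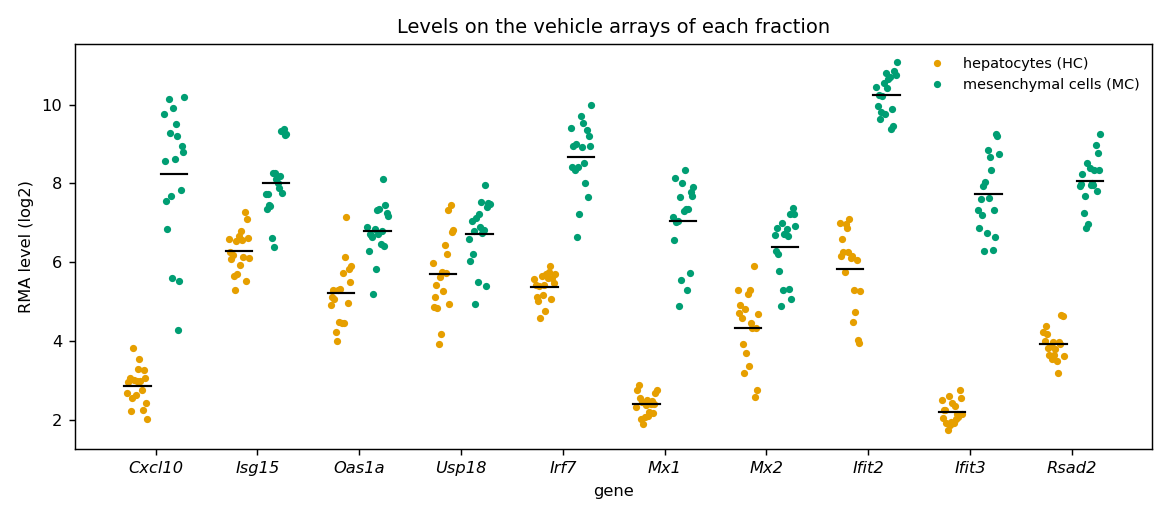
Log2 RMA level of the 10 genes (x axis) on the 18 vehicle arrays of hepatocytes (HC, orange) and of mesenchymal cells (MC, green); points are arrays and black lines are means. Every HC array lies below every MC array for Cxcl10, Irf7, Mx1, Ifit2, Ifit3 and Rsad2, and the fractions overlap for Isg15, Oas1a, Usp18 and Mx2.

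The labels of the fractions were set against marker genes. The mean of 18 hepatocyte markers ran from 11.39 to 11.82 over the HC groups and from 8.33 to 10.19 over the MC groups, so hepatocyte transcripts were abundant in MC as well. The mean of 12 measured Kupffer cell and macrophage markers ran from 9.99 to 10.85 over the MC groups and from 3.89 to 6.37 over the HC groups. T and NK cell markers (17 genes) averaged 2.44 to 2.77 in the HC groups and 5.04 to 5.90 in those of MC. Endothelial markers ran from 8.73 to 9.51 in MC and those of stellate cells, the pericytes of the liver, from 4.62 to 5.37, and the labels do not say which cells that fraction holds.

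Cxcl10 rose in hepatocytes 24 h after CPA, to levels within the range of all 18 MC vehicle arrays (4.28 to 10.20). The MC arrays of CO at 24 h alone ran from 6.84 to 10.14, with a mean of 8.58 that lay above the HC mean with CPA (7.14). The CPA arrays read 7.67, 7.43 and 6.32, and the CO arrays at 24 h read 2.69, 2.97, 3.08, 2.24 and 2.57. Every CPA array was above every CO array. The group means were 7.14 ± 0.72 (SD, n = 3) and 2.71 ± 0.33 (n = 5), a log2 difference of 4.43 (SE 0.31), or 21.5-fold (limma, adjusted p = 1.69e-10). It was called under all 20 alternatives tried, with differences from 3.93 to 4.84.

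After 6 d of CPA, Cxcl10 was still higher in hepatocytes. The CPA arrays read 5.51, 6.50 and 6.42 and the CO arrays at 6 d read 3.82, 3.01 and 2.63, again without overlap. The means were 6.14 ± 0.55 and 3.15 ± 0.61 (n = 3 each), a log2 difference of 2.99 (SE 0.35), or 7.94-fold (adjusted p = 3.38e-07). The effect at 6 d was smaller than that at 24 h, with a difference of -1.44 (SE 0.47, limma on the difference, adjusted p = 0.0384), where 7.7% of all genes were called lower. That call was lost without any 1 of 8 of the 14 arrays (CO replicates 1, 4 or 5 and CPA replicate 1 or 2 at 24 h, CO replicate 1 or 2 and CPA replicate 1 at 6 d), with adjusted p from 0.0517 to 0.145. No other member passed this test, the next being Ifit3 (0.79, adjusted p = 0.148), which passed without CPA replicate 1 at 6 d (1.19, adjusted p = 0.0137).

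**Figure D2:**
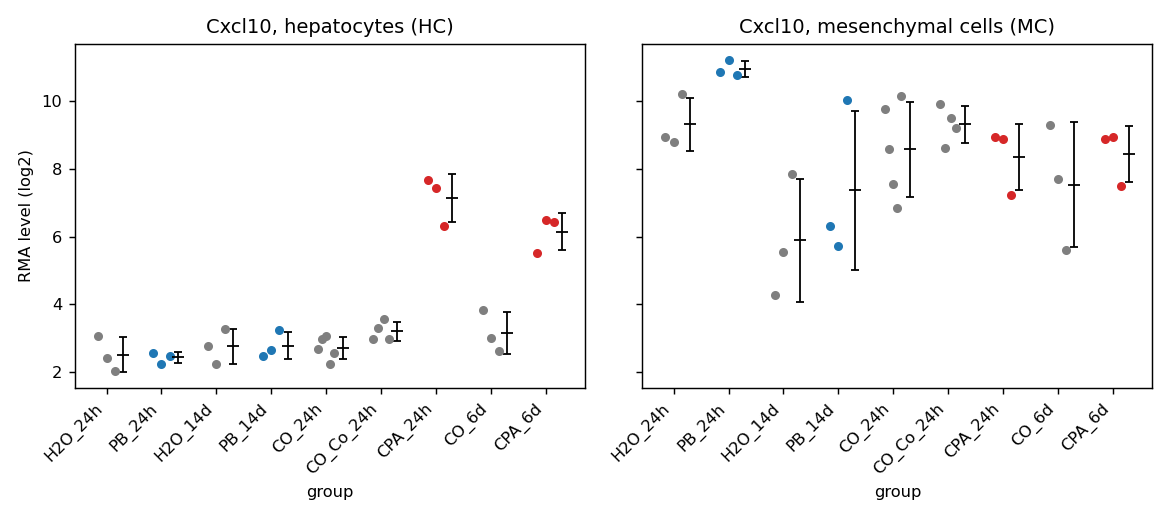
Log2 RMA level of Cxcl10 on every array, by group (x axis), in hepatocytes (left) and mesenchymal cells (right); grey is vehicle, blue PB and red CPA, and bars are mean ± SD. The HC arrays of CPA lie between 5.51 and 7.67 and every other HC array lies at or below 3.82, while in MC the PB_24h arrays lie between 10.77 and 11.22, above all others, and each remaining group overlaps its neighbour in the order of means.

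The order of the Cxcl10 levels in HC had CPA at 24 h first and CPA at 6 d next, and their arrays overlapped. All other HC groups followed between 2.43 ± 0.17 (PB at 24 h) and 3.21 ± 0.28 (CO_Co at 24 h), each overlapping its neighbour. In MC the order ran from PB at 24 h (10.94 ± 0.24) down to water at 14 d (5.88 ± 1.80). Only the first of these was apart from its neighbour, and in the order of every member at least 7 of the 8 neighbouring pairs overlapped in either fraction.

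Markers of other cells were read beside the Cxcl10 result. At 24 h the HC mean of the Kupffer cell and macrophage markers was 4.28 ± 0.89 (from 3.26 to 4.89) with CPA and 4.64 ± 1.02 (from 3.50 to 6.01) with CO. At 6 d it was 6.37 ± 0.17 (from 6.18 to 6.48) with CPA and 5.18 ± 0.16 (from 5.01 to 5.33) with CO. The list was not uniform at 6 d. The Kupffer cell lectin gene Clec4f read 7.72 ± 0.16 with CPA and 6.30 ± 0.22 with CO, while Lyz2 was lower with CPA. It read 7.40 ± 0.08 (from 7.32 to 7.48) with CPA and 7.81 ± 0.05 (from 7.78 to 7.87) with CO. With the mean of the Kupffer, endothelial and T and NK cell markers as a covariate, the Cxcl10 difference was 4.59 at 24 h (adjusted p = 8.93e-11) and 2.84 at 6 d (adjusted p = 3.35e-07). The mean of 10 genes of dividing cells also moved with CPA in HC, 6.40 ± 0.84 against 3.20 ± 0.42 at 24 h and 6.19 ± 0.17 against 3.35 ± 1.14 at 6 d, and its part in the Cxcl10 result was not tested. The mean of the hepatocyte markers was 11.45 ± 0.09 with CPA against 11.70 ± 0.08 with CO at 24 h, with 6 of 18 called lower and 2 higher. At 6 d it was 11.39 ± 0.09 against 11.73 ± 0.10, with 7 lower and 1 higher. Of all genes, 11.7% were called lower and 22.5% higher at 24 h, and 9.29% and 15.0% at 6 d. Cholangiocyte markers (6 measured) averaged 3.44 ± 0.08 against 3.05 ± 0.06 at 24 h and 3.85 ± 0.18 against 3.13 ± 0.01 at 6 d. For both lists the CPA and CO arrays were apart at each time, and their part was not tested either.

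Among the other interferon genes, 5 rose with Cxcl10 in hepatocytes 24 h after CPA. That made 6 of 10 members called higher and none lower, where 22.5% of all genes were called higher, and the median log2 difference of the members was 1.25 against -0.01 over all genes. The arrays of 7 members were all higher with CPA, as were those of 23.5% of all genes. Centring each array on its median lowered every difference in this comparison by 0.14 and ended none of the 6 calls. Isg15 read 7.79, 9.78 and 8.07 with CPA and 6.60, 6.27, 6.09, 6.19 and 5.66 with CO, a log2 difference of 2.38 (SE 0.52, adjusted p = 0.000668). Oas1a read 6.38, 7.74 and 7.52 with CPA and from 4.23 to 5.31 with CO, a difference of 2.28 (SE 0.44, adjusted p = 0.000173). Both were higher on every CPA array than on every CO array.

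Usp18, Irf7 and Rsad2 rose as well, each without overlap between the groups. Usp18 read 6.02, 8.05 and 6.69 with CPA and from 4.84 to 5.98 with CO (difference 1.68, SE 0.50, adjusted p = 0.00944). Irf7 read 6.18, 7.84 and 6.20 against 5.02 to 5.57 (1.43, SE 0.33, adjusted p = 0.00128). Rsad2 read 4.42, 5.71 and 5.00 against 3.82 to 4.39 (0.91, SE 0.26, adjusted p = 0.00681). The array of CPA replicate 2 was the highest of its group for all 5 of these genes, and without it Usp18 (1.11, adjusted p = 0.14) and Rsad2 (0.58, adjusted p = 0.126) were not called, which left 4 members. Against the CO_Co group in place of CO, Usp18 was not called (1.12, adjusted p = 0.0991).

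The GTPase and tetratricopeptide genes did not pass the test at 24 h. Mx2 had a difference of 1.06 (SE 0.61, adjusted p = 0.197) with every CPA array (5.34, 6.10 and 5.80) above every CO array (3.92 to 5.29), and its second probe set stood at 3.49 ± 1.52 against 3.43 ± 1.16. Ifit3 differed by 0.47 (adjusted p = 0.133), Ifit2 by 0.42 (adjusted p = 0.485) and Mx1 by 0.06 (adjusted p = 0.875), each with overlapping arrays. The HC levels of Mx1 and Ifit3 were low in all groups, at 2.58 ± 0.32 and 2.67 ± 0.29 with CPA.

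After 6 d of CPA, 4 members other than Cxcl10 were called in hepatocytes. The test called Ifit3, Rsad2, Oas1a and Mx1 higher, which with Cxcl10 made 5 of 10 members and none lower, where 15.0% of all genes were called higher. The median of the members was 1.18 against -0.01 over all genes, and 2 members had all CPA arrays higher, against 23.7% of all genes. Ifit3 read 2.55, 3.88 and 3.59 with CPA and 1.74, 2.61 and 1.87 with CO, a difference of 1.27 (SE 0.27, adjusted p = 0.0007) with 1 CPA array just inside the CO range. Its levels were low, with a CPA mean of 3.34 among the HC array medians (3.25 to 3.39) and a CO mean of 2.07. Rsad2 read 4.23, 5.03 and 5.17 against 3.65, 3.88 and 3.56, a difference of 1.11 (SE 0.29, adjusted p = 0.00504) without overlap.

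The calls of Oas1a and Mx1 at 6 d were close to the threshold. Oas1a read 5.19, 5.74 and 7.12 with CPA and 4.01, 5.31 and 4.48 with CO (1.41, SE 0.49, adjusted p = 0.037). Mx1 read 2.24, 2.85 and 3.63 against 2.45, 1.91 and 2.08 (0.76, SE 0.28, adjusted p = 0.0476), with means of 2.91 and 2.15 below the HC array medians (3.25 to 3.39). In both, CPA replicate 3 was the highest array, and without it Oas1a (0.86, adjusted p = 0.266) and Mx1 (0.40, adjusted p = 0.355) were not called. Both were also lost without CPA replicate 2 or CO replicate 3, Oas1a without CO replicate 1 and Mx1 without CO replicate 2. Centring each array, which lowered every difference here by 0.18, ended both calls too (adjusted p = 0.0624 and 0.12). With the mean of the Kupffer, endothelial and T and NK cell markers as a covariate, Mx1 was not called (0.68, adjusted p = 0.077).

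Isg15 (1.40, adjusted p = 0.0852), Irf7 (0.89, adjusted p = 0.0878) and Usp18 (1.25, adjusted p = 0.107) were not called at 6 d, and their CPA arrays spread widely. Isg15, for example, read 6.01, 6.88 and 8.86. Without CPA replicate 1, Isg15 (2.02, adjusted p = 0.0166) and Irf7 (1.32, adjusted p = 0.013) were called, and without CO replicate 2 so was Usp18 (1.78, adjusted p = 0.0345). Mx2 differed by 0.22 (adjusted p = 0.859) and Ifit2 by -0.48 (adjusted p = 0.524). The second Mx2 probe set differed more at 6 d, at 3.88 ± 1.32 with CPA against 2.11 ± 0.47 with CO. In MC it stood at 6.11 ± 1.62 against 2.89 ± 2.29, so the probe sets of Mx2 did not give the same picture at 6 d.

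**Figure D3:**
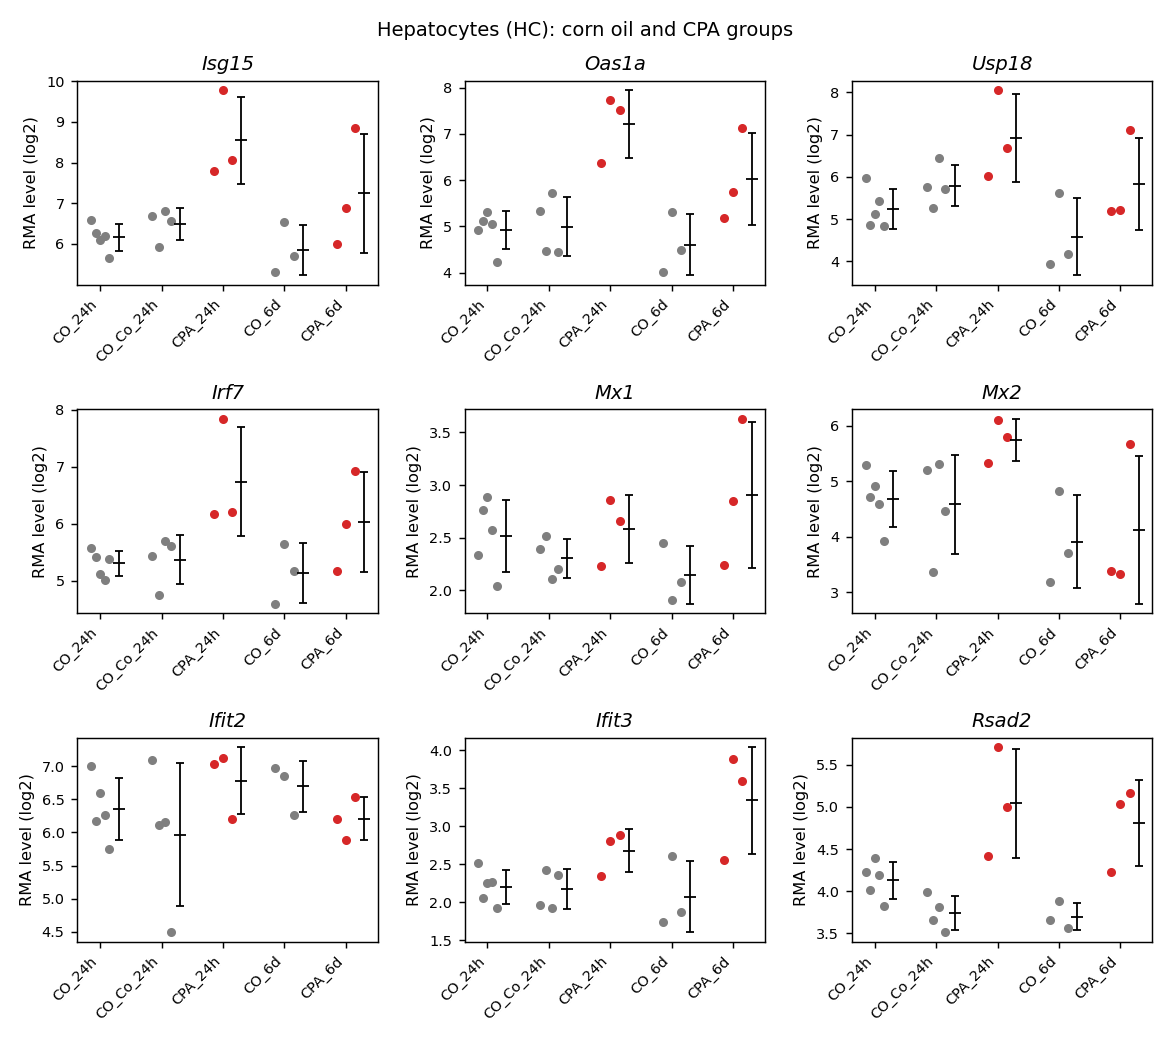
Log2 RMA level of the 9 other interferon genes in hepatocytes, by corn oil (grey) and CPA (red) group; points are arrays, bars are mean ± SD, and each panel has its own y axis. All CPA arrays at 24 h lie above the CO_24h arrays for Isg15, Oas1a, Usp18, Irf7, Mx2 and Rsad2, and at 6 d this holds for Rsad2.

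In the mesenchymal fraction no member was called after CPA at either time. At 24 h the limma test called 0 of 10, where 2.23% of all genes were called higher, and at 6 d 0 of 10 against 2.04%. At an unadjusted p under 0.05 it also found 0 at each time. Cxcl10 read 8.94, 8.87 and 7.24 with CPA at 24 h and from 6.84 to 10.14 with CO, a difference of -0.23 (SE 0.91, adjusted p = 0.959). At 6 d it read 8.87, 8.94 and 7.50 against 9.29, 7.69 and 5.61 (0.91, SE 1.02, adjusted p = 0.908). The groups overlapped at both times.

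For Cxcl10 the CPA effect at 24 h differed between the fractions, being higher in HC by 4.65 (SE 0.99, limma on the difference, adjusted p = 0.00121). It stayed called without any 1 of the 16 arrays concerned, with differences from 4.10 to 5.09. As fitted, without a block, no other member passed that test of the fractions, in which 6.2% of all genes were called higher, and Oas1a (1.82, adjusted p = 0.0952) and Rsad2 (1.12, adjusted p = 0.157) came nearest. Without the MC array of CPA replicate 2 both passed (2.30, adjusted p = 0.037, and 1.71, adjusted p = 0.0136), and without the HC array of CPA replicate 1 Oas1a did (2.24, adjusted p = 0.0496). At 6 d the difference for Cxcl10 was 2.08 (SE 1.10, adjusted p = 0.377) and no member was called without a block, where 3.13% of all genes were. With the array number as a block, Isg15, Oas1a, Usp18 and Irf7 were called beside Cxcl10 at 24 h, and Oas1a at 6 d. Those numbers were not shown to pair the fractions, and the shares of all genes are given in the last section.

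**Figure D4:**
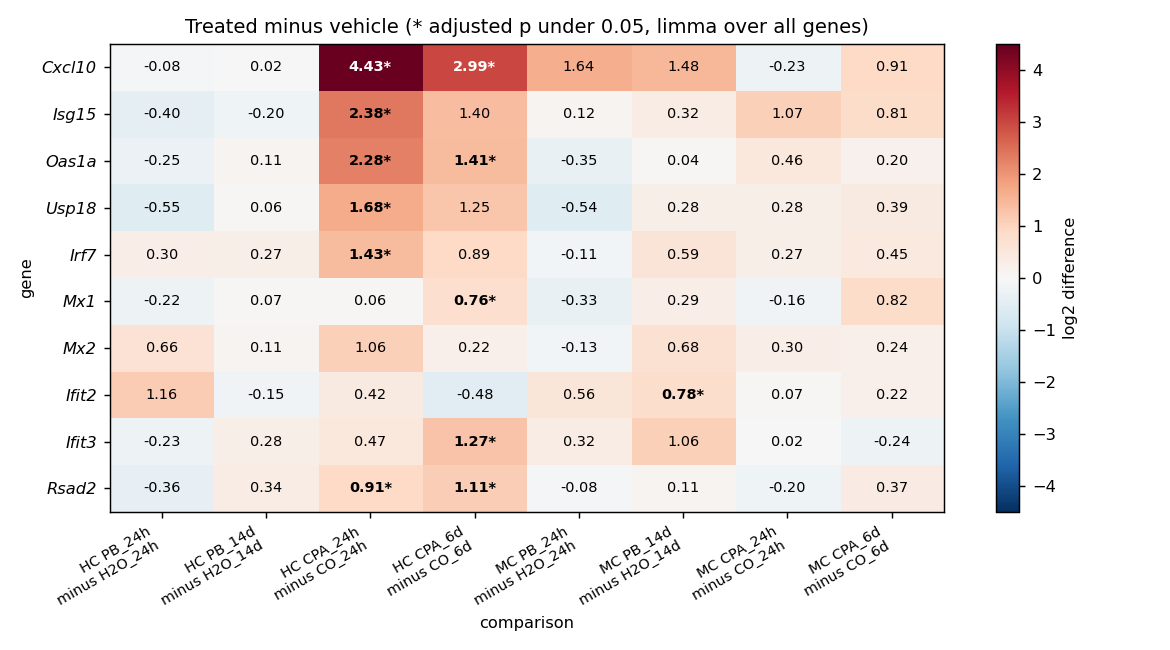
Log2 difference, treated minus vehicle, of the 10 genes (rows) in the 8 treatment comparisons (columns) of hepatocytes (HC) and mesenchymal cells (MC); an asterisk marks an adjusted p under 0.05 over all genes. The HC columns of CPA hold 11 of the 12 calls, led by Cxcl10 at 4.43 and 2.99, and the remaining one is Ifit2 in MC after 14 d of PB.

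PB left no call among these genes in hepatocytes. At 24 h, 0 of 10 were called by limma, where 0.0774% of all genes were called in either direction, and at 14 d 0 of 10 against 0.0633%. Cxcl10 stood at 2.43 ± 0.17 with PB and 2.52 ± 0.53 with water at 24 h (-0.08, SE 0.35), and at 2.78 ± 0.39 and 2.77 ± 0.51 at 14 d (0.02, SE 0.35). Differences of the 10 ran from -0.55 to 1.16 at 24 h and from -0.20 to 0.34 at 14 d. Ifit2 at 24 h, with 5.77, 5.24 and 5.74 against 4.03, 3.95 and 5.28 (1.16, SE 0.48, adjusted p = 0.621), was the 1 member at an unadjusted p under 0.05 at 24 h, and there were 0 at 14 d.

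In mesenchymal cells 24 h after PB, limma called 0 of 10 members and 0.0% of all genes, and Ifit2 alone had an unadjusted p under 0.05. Cxcl10 read 10.85, 11.22 and 10.77 with PB and 8.94, 8.79 and 10.20 with water (1.64, SE 1.02, adjusted p = 0.999). Ifit2 read 11.42, 11.42 and 11.51 against 10.86, 10.76 and 11.07 (0.56, SE 0.21, adjusted p = 0.999). These were the 2 members whose PB arrays all lay above the water arrays, as they did for 6.84% of all genes.

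After 14 d of PB, Ifit2 rose in mesenchymal cells, the 1 member of 10 called, where 9.36% of all genes were called higher. It read 10.23, 10.19 and 10.63 with PB and 9.38, 9.88 and 9.46 with water, without overlap (0.78, SE 0.21, adjusted p = 0.0186). The hepatocyte marker mean in MC was 8.33 ± 0.73 with PB and 10.19 ± 0.15 with water, and with it as a covariate Ifit2 differed by 0.38 (adjusted p = 0.288). Some marker means of other cells were higher with PB, with the arrays apart. They were 10.72 ± 0.07 against 9.99 ± 0.40 for Kupffer cells and macrophages, 9.51 ± 0.11 against 8.83 ± 0.13 for endothelial cells and 7.15 ± 0.33 against 6.18 ± 0.28 for dendritic cells. The arrays overlapped for stellate cells (4.62 ± 0.25 against 4.78 ± 0.33), T and NK cells (5.07 ± 0.33 against 5.04 ± 0.75), B cells (5.03 ± 0.01 against 5.03 ± 0.34), neutrophils (2.82 ± 0.37 against 3.19 ± 0.62) and cholangiocytes (2.41 ± 0.06 against 2.54 ± 0.12). The part of these cells was not tested. The second Ifit2 probe set stood at 8.96 ± 0.86 against 8.04 ± 0.54 (adjusted p = 0.0728). Without water replicate 1, PB replicate 1 or PB replicate 3 the adjusted p was 0.0848, 0.061 or 0.0678.

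Cxcl10 at 14 d read 6.32, 5.73 and 10.03 with PB and 4.28, 5.54 and 7.84 with water (1.48, SE 1.02, adjusted p = 0.301). Replicate 3 was the highest in both groups. In this comparison the arrays of equal number deviated together. With the number as a block Cxcl10 was called (1.48, adjusted p = 0.0335) beside Ifit2 (0.78, adjusted p = 0.0141), 2 of 10 members, where the block called 19.6% of all genes higher. That block was chosen from these same arrays, and the labels state no pairing, so the added call is not separate support. With the hepatocyte marker mean as a term and no block, Cxcl10 differed by 0.06 (adjusted p = 0.981). Ifit3 (1.06, adjusted p = 0.203), Irf7 (0.59) and Mx2 (0.68) were not called, and differences of the 10 ran from 0.04 to 1.48.

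The water controls themselves differed between the times in MC. At 14 d against 24 h, 3 of 10 members were called lower, where 9.06% of all genes were. Cxcl10 fell from 8.94, 8.79 and 10.20 at 24 h to 4.28, 5.54 and 7.84 at 14 d (-3.42, SE 1.02, adjusted p = 0.0228). Ifit3 fell from 9.07 ± 0.28 to 6.76 ± 0.51 (-2.31, SE 0.60, adjusted p = 0.0106) and Ifit2 from 10.89 ± 0.16 to 9.57 ± 0.27 (-1.32, SE 0.21, adjusted p = 0.000494), each without overlap.

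Of these, the Ifit2 call was kept without any 1 of the 6 arrays. Without water replicate 1 at 14 d, Cxcl10 (-2.62, adjusted p = 0.146) and Ifit3 (-2.08, adjusted p = 0.0615) were not called, and Cxcl10 was also lost without water replicate 2 at 14 d (adjusted p = 0.0619), without water replicate 3 at 24 h (adjusted p = 0.0883) and with labelled sex as a term (adjusted p = 0.0501). The mean of 6 measured dendritic cell markers was 7.12 ± 0.53 at 24 h and 6.18 ± 0.28 at 14 d, that of the genes of dividing cells 4.15 ± 0.06 and 3.61 ± 0.13, and that of the stellate cell markers 5.32 ± 0.14 and 4.78 ± 0.33, all 3 with the arrays of the times apart. Their part in the result was not tested. No member was called between the water groups in HC by limma, where 9.43% of all genes were called lower and Rsad2 was the 1 member at an unadjusted p under 0.05.

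The corn oil groups gave no call among the 10. Between 6 d and 24 h limma called 0 members and 0.0% of all genes in either fraction, with 0 members in HC and 1 in MC, Irf7 (-1.40), at an unadjusted p under 0.05. Between CO_Co and CO at 24 h it called 0 members, against 0.0703% of all genes in HC and 0.0% in MC. At an unadjusted p under 0.05 there were 0 members in HC and 1 in MC, Ifit2 (0.62). All 10 MC differences of CO_Co were above 0, from 0.26 to 0.97.

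Other tests of differences between effects gave no member either. For PB, limma called 0 of 10 members between the times, against 0.0352% of all genes in HC and 0.00703% in MC. Between the fractions the PB effect gave 0 of 10 at 24 h, against 0.0% of all genes, and 0 of 10 at 14 d, against 10.1%. For CPA in MC the times gave 0 of 10 against 0.506%. At an unadjusted p under 0.05 these 5 tests also held 0 members.

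Arrays within a group also differed from each other in these genes, and they did so together. For each gene the 30 HC arrays were set beside the 30 MC arrays of the same group and number, each as its deviation from its group mean. The labels do not say that such arrays come from 1 animal. Pearson's r was 0.90 for Usp18, 0.86 for Oas1a, 0.85 for Isg15, 0.78 for Irf7 and 0.75 for Mx2. It was 0.44 for Mx1, 0.42 for Cxcl10, 0.41 for Ifit2, 0.35 for Rsad2 and 0.28 for Ifit3. The median of the members was 0.59 against 0.16 over all 14217 genes, and 5 of 10 members had an r over 0.5 against 10.9% of all genes. These are descriptions, since points of a group share its mean and arrays of a pair may share an animal.

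The arrays behind this were single ones in several groups. Among CPA arrays at 24 h, replicate 2 was the highest for Isg15 in both fractions, at 9.78 in HC and 10.11 in MC, against 7.79 and 7.30 in replicate 1. Among CPA arrays at 6 d it was replicate 3, at 8.86 and 9.72, against 6.01 and 6.97 in replicate 1. In CO at 6 d replicate 2 stood at 6.53 and 8.27, and in water at 14 d replicate 2 stood at 7.28 and 9.32. By the mean of the 9 members other than Cxcl10, the highest array had the same number in HC and MC in 6 of 9 groups, and the lowest in 5 of 9. For Cxcl10, replicate 3 of CPA at 6 d was the lowest MC array, at 7.50, while replicate 3 of PB at 14 d was the highest in both fractions, at 3.23 in HC and 10.03 in MC.

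**Figure D5:**
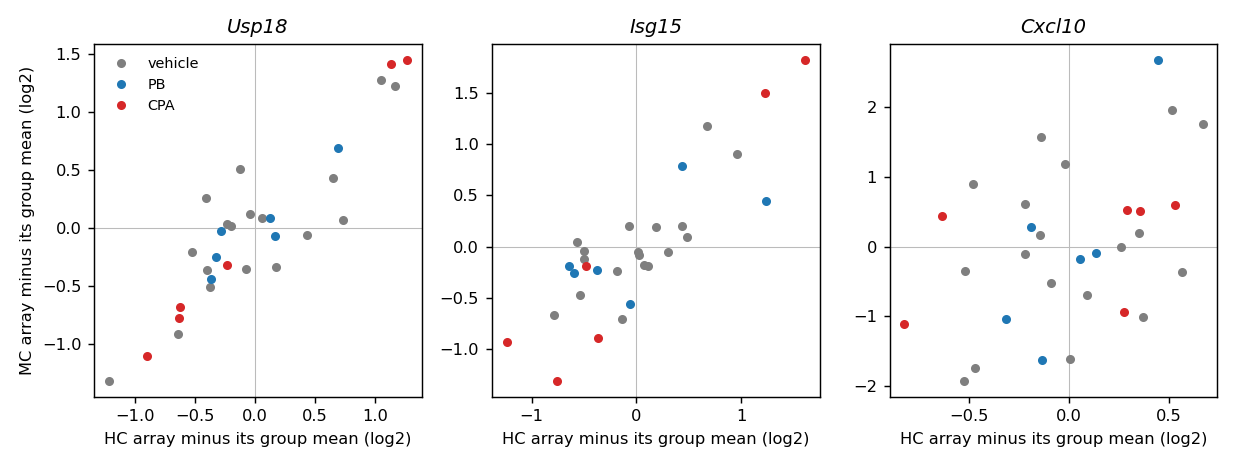
Deviation of each array from its group mean (log2) in hepatocytes (x axis) against the mesenchymal array of the same group and number (y axis) for Usp18, Isg15 and Cxcl10; grey is vehicle, blue PB and red CPA, with 30 pairs in each panel. Usp18 and Isg15 lie along a rising diagonal (r = 0.90 and 0.85) and Cxcl10 scatters (r = 0.42).

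Within MC groups, the 9 genes also varied together from array to array. The median r of their 36 pairs was 0.84, from 0.25 to 0.94, whereas the 9 pairs that include Cxcl10 had a median of 0.04, from -0.19 to 0.53, the highest being with Ifit2. In HC the medians were 0.34 and 0.15. Over all 30 MC arrays, group differences included, the genes most like Cxcl10 were Cxcl1 (r = 0.93), Ccrl2 (0.92), Ier3 (0.90), Egr1 (0.89) and Cxcl2 (0.88). Those most like the mean of the other 9 were Znfx1 (0.88), Ifi27 (0.87), Dhx58 (0.87), Rtp4 (0.85) and Oasl (0.85).

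In HC the genes most like Cxcl10 over the 30 arrays were Anp32b (r = 0.96), Nudcd2, Trip13, Kif20b and Ccdc34 (0.95 each), with the CPA arrays standing apart from the rest. Those most like the mean of the other 9 members were Irf9 (0.89), Sp110 (0.84), Herc6 (0.84), Parp12 (0.81) and Ube2l6 (0.80). Such correlations over arrays of few groups describe these arrays only.

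Upstream parts of the pathway were read from fixed lists. In HC at 24 h of CPA, where 22.5% of all genes were called higher and 11.7% lower, 1 of 12 measured sensors and adaptors rose. It was the kinase Tbk1 (0.76, adjusted p = 9.97e-05). Of 9 interferons and receptors, Il10rb rose (0.50) and Ifnar2, a chain of the type I receptor, fell by 0.62. The interferon genes measured stood low, Ifnb1 at 2.62 ± 0.24 with CPA and 2.77 ± 0.42 with CO, Ifng at 1.31 ± 0.15 and 1.41 ± 0.15 and Ifnk at 1.74 ± 0.05 and 1.96 ± 0.20, and none of them was called in any of the 8 treatment comparisons. Of 14 JAK-STAT and IRF genes, Irf9, the DNA-binding part of the ISRE complex, rose by 0.82 (SE 0.26, adjusted p = 0.015), with Ptpn11 (0.61) and Ptpn6 (0.37), and the receptor kinase gene Tyk2 fell by 0.91 (adjusted p = 7.31e-06). Irf1 (0.34, adjusted p = 0.498) and Ifngr1 (0.15) were not called.

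Other targets of type I interferon in HC at 24 h of CPA had 19 of 48 called higher and 1 lower, against 22.5% and 11.7% of all genes, with a median of 0.40. Lgals3bp (1.09), Sp110 (1.09), Cmpk2 (1.04) and Herc6 (0.95) led them. Of 33 targets of interferon-gamma and antigen presentation, 5 rose and none fell, led by the CXCR3 ligand Cxcl9 (0.96, adjusted p = 0.00996), Irgm (0.94), Igtp (0.90) and the peptide transporter Tap1 (0.90). Cxcl11, the third CXCR3 ligand, differed by -0.11 (adjusted p = 0.459). Of 22 NF-kB targets 2 rose, Icam1 (1.21) and Birc3 (0.67).

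At 6 d of CPA the counts in HC were 9 of 48 higher and 3 lower for type I targets, with a median of 0.20, against 15.0% and 9.29% of all genes. Lgals3bp (2.23), Oasl (1.91), Ifitm2 (1.58) and Isg20 (1.5) led the rises. Targets of interferon-gamma and antigen presentation had 14 of 33 higher and none lower, with a median of 0.63, led by the class II genes RT1-Da (3.06), Cd74 (2.89) and RT1-Ba (2.79) and by Gbp2 (2.27). Cxcl9 rose by 1.65 (SE 0.32, adjusted p = 0.000307) and Cxcl11 was not called (-0.25, adjusted p = 0.13). The Kupffer cell and macrophage markers, whose mean was higher in the same arrays as given above, are of cells that express class II genes. Their part in these counts was not tested.

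The signalling genes at 6 d moved in both directions. Irf8 rose by 1.32 (adjusted p = 0.00011). It is also among the 6 measured dendritic cell markers. Their mean in HC was 3.49 ± 0.08 (from 3.41 to 3.57) with CPA and 3.01 ± 0.15 (from 2.83 to 3.10) with CO. That mean includes Irf8 itself, so part of its rise is that of Irf8. Flt3 (2.61 ± 0.10 with CPA, 2.71 ± 0.26 with CO) and Itgax (3.29 ± 0.17, 3.32 ± 0.30) of the same list were not higher. The part of such cells was not tested. Tlr4 rose by 0.64, while Irf3 (-1.27, adjusted p = 3.01e-07), Mavs (-0.80), Tyk2 (-0.97), Pias1 (-0.62) and Socs3 (-0.43) were called lower. Irf9 (0.48, adjusted p = 0.257) and Irf1 (0.59, adjusted p = 0.301) were not called. Of 22 NF-kB targets 5 rose and none fell, among them Tnfaip3 (1.71), Vcam1 (1.43), Icam1 (1.17) and Ccl2 (1.14). Some of these levels were low. Tlr4 (2.64 with CPA, 2.00 with CO), Socs3 (2.75, 3.18) and Ccl2 (2.71, 1.57) lay below the HC array medians (3.25 to 3.39). So did the CO means of Vcam1 (2.14) and Irf8 (2.80). Of all genes, 15.0% were called higher and 9.29% lower at this time.

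In the MC fraction, these lists held calls after 14 d of PB and after 6 d of CPA. With PB at 14 d, 9.36% of all genes were called higher and 9.02% lower. In the same arrays the hepatocyte marker mean was 8.33 ± 0.73 with PB and 10.19 ± 0.15 with water. With that mean as a covariate a smaller share of all genes was called higher, as given in the last section. Its part in the calls of the genes named here was not tested. Higher were 2 of 12 sensors and adaptors, Sting1 (0.54) and Tlr4 (0.76), 1 of 9 interferons and receptors, Ifngr1 (0.61, adjusted p = 0.0453), and 2 of 14 JAK-STAT and IRF genes, Jak1 (0.65) and Pias1 (0.52). So were 2 of 33 targets of interferon-gamma and antigen presentation, B2m (0.47) and Ciita (0.99), and 1 of 22 NF-kB targets, Tnf (1.84, adjusted p = 0.0188), but 0 of 48 type I targets. Cxcl11 (-1.39, adjusted p = 0.0349), Trim14 (-2.0) and Sod2 (-1.07) were called lower, 1 in each of the last 3 lists, so the CXCR3 ligands Cxcl10 (1.48), Cxcl9 (1.0, adjusted p = 0.122) and Cxcl11 did not share a sign. With CPA at 6 d, 1 of 22 NF-kB targets, Ccl7 (1.59, adjusted p = 0.00192), was called higher, where 2.04% of all genes were, and 0 genes of the other 5 lists.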

How the data were processed

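Affymetrix rat expression arrays were hybridised with 250 ng of RNA, per the labels' protocols, on 60 samples (30 of hepatocytes, 30 of the mesenchymal fraction). The deposited values are log2 expression levels normalised by the authors with RMA (robust multi-array average), per the submitters' processing notes; the RMA version and whether both fractions were normalised together are not given in the sources used here. RMA gives no detection call, so a low level cannot be told apart from background; precision is limited by how many arrays a group has. Of 31042 probe sets, 20826 carried 1 gene symbol, 436 several and 9780 none in the platform annotation, and 99.7% of those with 1 symbol were matched to RefSeq by Entrez ID. They gave 14217 genes, each by its probe set of highest mean. The values were tested as deposited with limma 3.58.1 in R 4.3.3 (lmFit, eBayes), with the 9 group means of a fraction fitted over its 30 arrays and no further term, and contrasts between fractions fitted over all 60. P-values were adjusted over 14217 genes by Benjamini-Hochberg and called under 0.05. Standard errors use the moderated variance. The fit was tested on simulated data. The members and gene lists were chosen with earlier results of these data known. Every member is named. Of other genes the 4 called ones of largest change per list are named, with Irf1, Irf9, Cxcl9, Cxcl11 and Ifngr1. So are the 5 genes most correlated with Cxcl10 and with the mean of the other 9 members. Clec4f, Lyz2, Flt3 and Itgax were named after their values were seen. Alternatives were other groups in the fit, array weights, a replicate block, centring, quantile normalization, other probe set choices, marker covariates and leaving out each array. Arrays of equal number were taken as paired where each of the 3 pairs of deviations from the group means correlated above 0.1. Of the treatment comparisons, PB against water at 14 d met this, with r of 0.3, 0.2 and 0.459 in HC and 0.255, 0.332 and 0.644 in MC. The pairing comes from this check, since the labels give only numbers.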

Additional observations from a re-analysis of the deposited data

Results flagged for a closer look

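For Cxcl10, the CPA effect at 24 h differed between hepatocytes and mesenchymal cells by 4.65 (limma on the difference, adjusted p = 0.00121), and the CPA effect in hepatocytes differed between 6 d and 24 h by -1.44 (adjusted p = 0.0384). These were the 2 calls among 80 tests of a difference between effects, 10 members in 8 comparisons, as fitted without a block. A single array stood away from its group for Rsad2 in the CO_Co group of MC at 24 h, where the highest array read 8.38 and the nearest 8.0, a gap of 0.88 of the group's range. This was 1 of 40 sets of a gene and a group examined, and chance marks about 1 in 20.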

How the results depend on the processing

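Over all alternatives, no called difference of a member changed sign. Counting each member in each comparison under each alternative, a call was lost 42 times and gained 24 times, and the side of the threshold was kept 3106 times. In HC after 6 d of CPA, the 5 members called became 3 with only the 2 groups in the fit, 8 with array weights, 3 with each array centred on its median, and 3 to 7 without 1 array (3 without CO replicate 3 or CPA replicate 2 or 3), where the same settings called 15.8%, 20.8%, 10.2% and 11.7% to 14.6% of all genes higher. A replicate block ended the call of Mx1 there (adjusted p = 0.0754). In HC after CPA at 24 h, the 6 became 4 to 6 without 1 array and 4 with a replicate block, against 17.4% to 22.2% and 19.8% of all genes. In MC after 14 d of PB, the 1 member became 2 with a replicate block, 0 with the probe set of largest variance, 0 when the mean of hepatocyte markers entered as a covariate, and 0 to 1 without 1 array, against 19.6%, 8.07%, 0.288% and 0.928% to 9.52% of all genes. The block changed no call in HC at 14 d of PB. Array weights gave 1 member in MC at 24 h of PB (Ifit2) and 3 in MC at 24 h of CPA (Isg15, Oas1a and Ifit3), where the values as tested gave 0. With these weights 2.17% and 11.7% of all genes were called higher. A replicate block on the array numbers gave 5 members for the CPA effect at 24 h between the fractions, adding Isg15, Oas1a, Usp18 and Irf7 to Cxcl10, and 1 at 6 d, Oas1a (1.21, adjusted p = 0.00858), against 8.65% and 4.64% of all genes called higher. Those numbers were not shown to pair the fractions, 21 of 30 pairs correlating above 0.1. All 6 pairs of the PB comparison at 14 d did, and with the block the PB effect there differed between the fractions for 0 members, against 15.3% of all genes called either way. Alternatives for differences between effects and between vehicle groups were chosen after seeing the data. Without 1 array, members called ranged from 1 to 3 for the CPA effect at 24 h between the fractions, from 0 to 1 for that effect in HC between the times, from 1 to 3 for water at 14 d against 24 h in MC, and from 0 to 1 in HC (Rsad2, without replicate 3 at 24 h). The shares of all genes called either way ranged from 4.75% to 12.2%, 10.5% to 14.2%, 6.65% to 20.1% and 8.08% to 20.2% in these. The cause of these changes was not tested. With 3 arrays in most groups, differences of members with a wide spread in MC, such as Cxcl10 with standard errors near 1, could not be resolved unless they were large.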
